A study of Homo sapiens with 9 samples.

Results

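OVCAR-8 is an established human ovarian cancer cell line. Its resting transcriptome was taken from the 3 libraries of cells that received an siRNA against luciferase, a firefly gene that human cells do not carry, so that the cells underwent transfection with no human transcript as the intended target. These 3 libraries, out of 9 in the series, were chosen by their labels alone. The other 6 libraries came from cells given 1 of 2 siRNAs against CDK12 and are not used here. All cells grew in RPMI-1640 with fetal bovine serum, and RNA was collected 48 h after transfection. The control libraries carry the names AK39, AK41 and AK49. The series calls them technical replicates, but what the names mark is not stated, and the libraries differed by more than read counting gives. Whether an SD below measures technical spread or spread between cultures is therefore not known. No untransfected cells were analysed here, so a response to transfection cannot be told apart from the resting levels.

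Levels are in RPKM, the number of reads for each kilobase of a gene and for each 1000000 reads of its library. This allows genes of different length to be set side by side, but the length is the listed one. A level therefore also depends on how the gene was annotated. A gene is called expressed here when its mean over the 3 libraries was at least 1 RPKM. The sequencing was deep, with library sizes of 131, 173 and 134 in units of 1000000 reads for AK39, AK41 and AK49. Leaving out any 1 library gave 14453 to 14676 expressed genes and moved no list count below by over 1.5 times, although AK41 stood apart in level for many genes and AK39 held reads of immune cell genes, as given at the end and beside the immune markers. At that depth an expressed gene had a median of about 3100 reads in a library. In cultured cells, less RNA per cell and fewer cells making the RNA cannot be told apart from these bulk values.

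High-grade ovarian carcinoma is thought to arise mostly from the epithelium of the fallopian tube, which descends from the Müllerian duct and keeps the transcription factor PAX8. Carcinoma cells can lose E-cadherin and take on vimentin and N-cadherin, the change known as epithelial to mesenchymal transition. Defects of homologous recombination, the repair of double-strand breaks from an intact copy, are frequent in the disease and underlie its treatment with PARP inhibitors.

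OVCAR-8 cells expressed 14555 of 57773 listed genes, or 25.2%, and 13922 of these reached 1 RPKM in all 3 libraries. Among 19263 protein-coding genes the expressed share was 56.4%, which is 10866 genes. A further 18665 listed genes had no read in any of the 3 libraries. The distribution was steep. A total of 4807 genes reached 10 RPKM, 346 reached 100 RPKM and 16 reached 1000 RPKM. The 100 highest genes held 28.4% of the summed RPKM and the 1000 highest held 57.2%. The median was 1.79 RPKM over all protein-coding genes and 6.66 RPKM over the expressed ones.

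The nuclear protein-coding genes at the top of the ranking encode cytoskeletal, glycolytic, iron storage, chaperone, chromatin and ribosomal proteins. TMSB10, an actin monomer-binding thymosin, ranked 6 among all genes, with 2223 RPKM in AK39, 1505 in AK41 and 1819 in AK49, a mean of 1849 ± 360.0 (SD, n = 3). GAPDH, a glycolytic enzyme, had 1505, 1400 and 1480 RPKM in the same order (1462 ± 55.1, SD, n = 3). AK39 was highest for both genes and AK41 lowest. Of all expressed genes, 42.2% were highest in AK39 and 64.6% lowest in AK41. FTL, the ferritin light chain, had 1252, 934 and 1127 RPKM (1104 ± 160, SD, n = 3), and ACTB, cytoplasmic beta-actin, had 1140, 753 and 1008 RPKM (967 ± 196, SD, n = 3). HSP90AA1, a heat shock chaperone, was instead highest in AK41, with 860.5, 1152 and 841 RPKM (951 ± 174, SD, n = 3). HMGA1, an architectural chromatin protein, and RPS18, a protein of the small ribosomal subunit, completed the 7 nuclear protein-coding genes of the 30 highest, with means of 789 ± 115 and 778 ± 89.7 RPKM (SD, n = 3).

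Promoter sequences are shown for 4 genes that span the range of levels: TMSB10 and GAPDH, with the highest levels among nuclear protein-coding genes, PAX8, the lineage factor, and KRT5, a basal keratin near 0. Each runs 5′ to 3′ on the gene's own strand, from 250 bases before to 50 bases after the RefSeq start, on build GRCh38.p14. Capitals mark 4 motifs searched on both strands: the TATA motifs TATAAA and TATATAA, the GC box core GGGCGG and the CCAAT box.
TMSB10, chr2:84905406-84905705, plus strand: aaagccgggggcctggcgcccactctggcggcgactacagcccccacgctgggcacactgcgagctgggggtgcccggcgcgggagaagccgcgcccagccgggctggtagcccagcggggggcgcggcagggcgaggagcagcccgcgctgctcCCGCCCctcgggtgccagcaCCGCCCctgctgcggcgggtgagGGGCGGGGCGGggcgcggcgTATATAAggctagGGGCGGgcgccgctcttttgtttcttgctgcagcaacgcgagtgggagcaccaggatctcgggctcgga
GAPDH, chr12:6535014-6535313, plus strand: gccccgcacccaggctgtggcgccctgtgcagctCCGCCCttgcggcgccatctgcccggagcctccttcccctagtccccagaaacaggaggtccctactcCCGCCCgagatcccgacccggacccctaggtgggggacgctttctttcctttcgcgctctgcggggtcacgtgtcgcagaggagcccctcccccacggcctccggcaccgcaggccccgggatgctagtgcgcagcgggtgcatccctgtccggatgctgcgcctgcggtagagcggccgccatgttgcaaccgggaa
PAX8, chr2:113278872-113279171, minus strand: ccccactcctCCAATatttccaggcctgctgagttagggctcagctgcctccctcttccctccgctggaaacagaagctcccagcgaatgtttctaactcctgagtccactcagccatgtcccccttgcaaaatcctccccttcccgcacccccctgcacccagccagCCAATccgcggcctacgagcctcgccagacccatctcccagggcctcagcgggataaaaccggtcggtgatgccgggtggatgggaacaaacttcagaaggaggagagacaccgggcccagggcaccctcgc
KRT5, chr12:52520345-52520644, minus strand: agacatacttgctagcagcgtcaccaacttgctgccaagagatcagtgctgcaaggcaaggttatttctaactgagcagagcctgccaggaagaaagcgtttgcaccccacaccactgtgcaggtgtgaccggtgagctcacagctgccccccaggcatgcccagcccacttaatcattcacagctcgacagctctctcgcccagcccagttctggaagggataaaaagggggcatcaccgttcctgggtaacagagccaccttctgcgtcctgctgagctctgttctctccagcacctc

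The TMSB10 window held 5 GC box cores, counting those that overlap, and 1 TATATAA. The GAPDH window held 2 GC box cores, but whether it lies at the main start of the gene was not checked. The PAX8 window held 2 CCAAT boxes, and none of the 4 motifs lay in the KRT5 window. Across 12613 RefSeq promoters of expressed protein-coding genes outside chromosome 8 and the mitochondrial chromosome, 68.2% held GGGCGG, 35.1% CCAAT, 5.69% TATAAA and 1.26% TATATAA. Over the 21203 promoters of all such protein-coding genes, expressed or not, the shares were 57.1%, 34.8%, 9.29% and 2.02%. Over every promoter of the same table, 35116 in all, they were 45.0%, 34.6%, 11.5% and 2.57%. That wider set is not limited to protein-coding genes or by chromosome. A gene can have several entries, and 83.7% of the expressed genes had at least 1. Of the genes of at least 100 RPKM, to which TMSB10 and GAPDH belong, 78.7% had an entry. In their 245 promoters, 28 held TATAAA and 15 TATATAA, shares of 11.4% and 6.12%. The lower shares among all expressed genes thus do not describe this tier. These counts are small, and no difference between tiers was tested. These are matches of letters in a window, not measured sites.

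Many of the 30 highest rows of the table do not stand for separate transcripts. Among them, 11 of 30 lie on the mitochondrial chromosome, and 6 more lie on chromosome 1 between positions 565020 and 570302 of hg19, where copies of mitochondrial sequence sit in the nuclear genome. Reads of these copies and of the mitochondrial genes cannot be told apart safely. The row hsa-mir-6723, within that interval, had 2148, 1644 and 2356 RPKM in AK39, AK41 and AK49. A total of 14 of the 30 rows are shorter than 600 bases, and 10 overlap a gene with more reads, a share close to the 32.3% of all expressed genes. AC006483.1, of 84 bases, had 5065 RPKM on average and overlaps ACTB. RP5-940J5.9, an antisense row, had 3850 RPKM on average and overlaps GAPDH. AC139149.1, also of 84 bases, had 1974 RPKM on average and overlaps ACTG1, while AC107016.2 overlaps KRT18 and had 825 RPKM. The library kit does not mark strand, so reads in such overlaps cannot be assigned to either gene. The first place went to CTD-2328D6.1, a row of 432 bases on chromosome X with no biotype in the annotation used here, at 6495, 10643 and 7446 RPKM.

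Mitochondrially encoded genes took 1.66%, 1.34% and 1.72% of the reads summed over listed rows in AK39, AK41 and AK49. The rows of the chromosome 1 copies are not in these shares. Of these, hsa-mir-6723 alone had 433503, 440068 and 486328 reads, against 175238, 174073 and 201074 for MT-CO1. The shares and the order of the mitochondrial genes therefore also depend on where such reads were placed. The highest protein genes among them were MT-ATP8, an ATP synthase subunit, at 1833, 1126 and 1750 RPKM, and MT-ND4L, a complex I subunit, at 1814, 1014 and 1651 RPKM. MT-ATP8 overlaps MT-ATP6, and MT-ND4L overlaps MT-ND4, so these short rows share reads with longer neighbours. Over the 13 mitochondrial protein genes AK41 was lowest, with 10965, 6384 and 10255 reads per 1000000 in the 3 libraries. MT-RNR1, the small mitochondrial ribosomal RNA, was instead lowest in AK39, with 989 RPKM against 1861 in AK41 and 1513 in AK49.

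Close relatives within a gene family differed widely in RPKM, which also reflects their listed lengths. TMSB4X, the other major thymosin, had 139.9 ± 14.3 RPKM (SD, n = 3), well below TMSB10. ACTG1, cytoplasmic gamma-actin, had 642 ± 113 RPKM, while the smooth muscle and cardiac actins ACTA2 and ACTC1 had 0.294 and 0.289 RPKM. Among beta-tubulins TUBB had 584 RPKM, TUBB4B 250.2, TUBB6 211, TUBB2A 26.0 and TUBB2B 13.4. TUBB3 is listed in a pair of overlapping rows at 22.1 and 9.91 RPKM. These rows had 8774 and 8644 reads in AK39, with listed lengths of 2776 and 6138 bases. LDHB, the lactate dehydrogenase subunit of heart type, had 285 ± 42.1 RPKM and LDHA, the muscle type, 104 ± 2.19 (SD, n = 3). In AK39 they had 103564 and 85596 reads, with listed lengths of 2983 and 6210 bases. The elongation factor EEF1A2, which in adult tissue is known mainly from neurons and muscle, stood at 144, 97.2 and 134 RPKM, beside 477, 577 and 475 RPKM for the common form EEF1A1. PKM and ENO1, glycolytic enzymes, had means of 139 and 422 RPKM, while the liver and red cell form PKLR was at 0.00707 RPKM. Paralogs can share reads, and the authors' handling of reads with several matching places is not known here.

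The cells carried PAX8 and mesothelin but few other markers of the Müllerian lineage and of ovarian carcinoma. On that list 8 of 27 members were expressed (29.6%, beside 56.4% of protein-coding genes), and the median member had 0.0845 RPKM. MSLN, mesothelin, a surface antigen of ovarian carcinoma and mesothelium, had 28.8, 23.6 and 34.8 RPKM in AK39, AK41 and AK49 (29.1 ± 5.61, SD, n = 3). PAX8 had 8.21, 5.87 and 9.13 RPKM (7.73 ± 1.68, SD, n = 3). AK41 was lowest and AK49 highest for both genes, beside 64.6% and 34.0% of all expressed genes. The PAX8 gene (ENSG00000125618) spans chromosome 2 from 113973574 to 114036527 in hg19, and the antisense PAX8-AS1 overlaps it with 0.241 times its reads. The protease inhibitor SPINT2 had a mean of 14.5 ± 0.681 RPKM, the retinoic acid binding protein CRABP2 6.79 ± 1.24 and the surface adhesion molecule EPCAM 2.59 ± 0.124 (SD, n = 3).

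Other markers of serous ovarian carcinoma were low or nearly absent in RPKM. No other cell line or tissue was set beside them. WT1, a transcription factor used to diagnose serous carcinoma, had 0.842, 0.798 and 0.965 RPKM, just under the limit in each library. FOLR1, the folate receptor alpha, had 0.645, 0.654 and 0.678 RPKM. MUC16, which encodes the CA-125 antigen, rested on 5, 2 and 1 reads, and ESR1, the estrogen receptor alpha, on 4, 7 and 18 reads. The other steroid receptor on the list, PGR, lay at the limit with a mean of 1.02 RPKM (a member singled out after its values were seen). No read in any library was found for 6 of 27 members: MECOM, EMX2 and the kallikreins KLK5, KLK6, KLK7 and KLK8. For MECOM, 0 reads over the 3 libraries together allows up to 0.000753 RPKM, taking 3 reads as the limit. Such limits cover counting error only.

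Keratins of simple epithelium were abundant, while CDH1 and several epithelial regulators were near 0. KRT8, a type II keratin, had 233, 210.1 and 232 RPKM, and its partner KRT18 had 188, 140.3 and 171 RPKM. KRT7 had 50.9, 45.9 and 50.9 RPKM, and DSP, the desmosomal protein desmoplakin, 46.4, 34.7 and 48.4. These 4 genes were the highest of the epithelial list, and AK41 was lowest for each, as for 64.6% of all expressed genes. KRT8 and KRT18 are neighbours on chromosome 12 whose listed spans overlap. CDH1, which encodes E-cadherin, had 29, 44 and 37 reads, or 0.0407 ± 0.00448 RPKM (SD, n = 3). KRT19 had 4, 2 and 0 reads. The transcription factors GRHL2, OVOL1 and ELF3, which maintain epithelial identity, and the basal keratin KRT5 had 1 to 8 reads over the 3 libraries. In all, 10 of 27 epithelial members were expressed (37.0%, beside 56.4% of protein-coding genes) and 10 lay under 0.1 RPKM. The expressed members included the regulators OVOL2, with 3.54, 3.48 and 3.29 RPKM, and ESRP2, with a mean of 1.07 RPKM. SNX5 and NFATC3 overlap them with 14.6 and 6.18 times their reads. The junction genes TJP1 and OCLN had means of 13.3 and 3.42 RPKM, while ESRP1 stayed at 0.442 RPKM.

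Of 28 mesenchymal genes, 20 were expressed (71.4%, beside 56.4% of protein-coding genes), with a list median of 2.56 RPKM. LGALS1, galectin-1, had 331, 330.3 and 305 RPKM, and VIM, the intermediate filament vimentin, had 317, 271 and 327 RPKM. SPARC, a matrix glycoprotein, had 60.02, 49.1 and 63.7 RPKM, and the caveolar protein CAV1 had 47.9, 56.7 and 46.9. CDH2, which encodes N-cadherin, had 23.7, 20.9 and 25.2 RPKM. Vimentin was above KRT8 in every library, and N-cadherin was above E-cadherin in every library. The matrix genes of the list were split. COL1A1, the alpha 1 chain of type I collagen, had 19.7, 12.5 and 22.5 RPKM, whereas its partner chain COL1A2 rested on 2, 3 and 3 reads. POSTN and COL5A1 had 2 and 4 reads, all in AK39, and the gelatinase gene MMP2 had none, which allows up to 0.00139 RPKM.

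**Figure D1:**
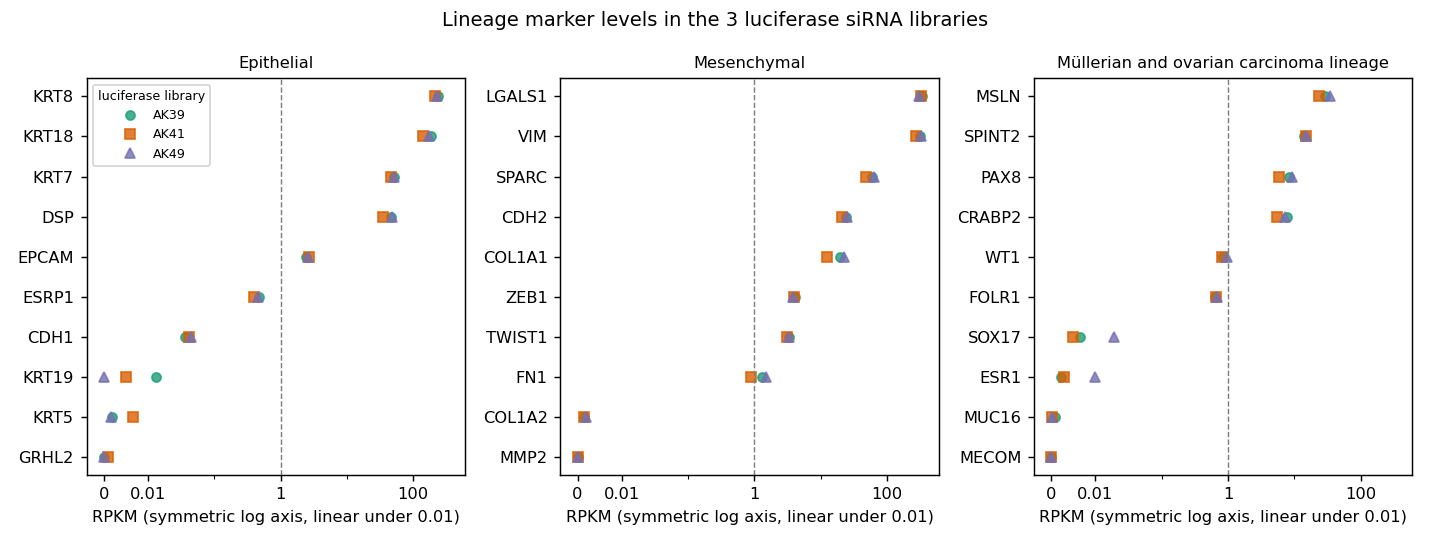
Level of 30 lineage markers, with RPKM on a symmetric log axis (linear under 0.01) and 1 point for each luciferase siRNA library; the dashed line marks 1 RPKM. Keratins KRT8, KRT18 and KRT7 and the mesenchymal LGALS1, VIM and SPARC lie far to the right of the line in all 3 libraries, while CDH1, KRT19, ESR1, MUC16 and MECOM lie far to the left.

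HOX genes, which specify position along the body axis, were expressed at modest levels. In all, 15 of 39 members reached 1 RPKM (38.5%, beside 56.4% of protein-coding genes) and none reached 10 RPKM. On the TPM scale, where a limit of 1 admits lower levels, 27 passed. The highest were HOXB7 with 8.39, 6.74 and 8.13 RPKM, HOXC10 with 5.47, 4.07 and 5.22, HOXD13 with 3.97, 3.64 and 3.73, and HOXC4 with 3.35, 2.75 and 3.41. By cluster, 6 of 9 HOXC genes were expressed, 4 of 10 HOXB genes, 3 of 9 HOXD genes and 2 of 11 HOXA genes. HOXB13 had no read. Neighbouring HOX genes overlap in their listed spans, and 5 of the 15 expressed members were overlapped by a gene with more reads, close to the 32.3% of all expressed genes.

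Markers of other cell types were mostly near 0, with 3 of 45 list entries expressed (6.67%, beside 56.4% of protein-coding genes). The endothelial TIE1, an orphan receptor kinase, had 1.84, 1.55 and 2.33 RPKM, but VWF had 44, 73 and 63 reads, CDH5 had 6, 9 and 1, and EMCN none. PECAM1 could not be matched to a single row. Of the fibroblast markers, COL1A1 passed the limit, PDGFRB had 0.724, 0.586 and 0.801 RPKM, and DCN had no read. Of the mesothelial markers, MSLN passed, CALB2, calretinin, had 0.401 ± 0.0165 RPKM (SD, n = 3) and ITLN1 had no read.

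None of 16 immune cell markers was expressed (2 passed a limit of 1 on the TPM scale), but their reads differed between the libraries. The list had 911 reads in AK39, 364 in AK41 and 265 in AK49, or summed levels of 3.14, 0.787 and 0.750 RPKM. LYZ, the lysozyme of myeloid cells, had 276, 15 and 17 reads. CD74, the invariant chain of MHC class II, had 151, 34 and 23 reads, and PTPRC, the pan-leukocyte antigen CD45, had 79, 10 and 0. AK39 stood above the others for these 3 genes. The T cell genes CD2 and CD3E had no read in any library. Over these 16 markers no library summed to more than 3.14 RPKM, and KRT8 alone had a mean of 225 RPKM. The sum leaves out immune genes outside the list, such as S100A9, with 1.83 RPKM in AK39. The source of these reads was not tested.

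**Figure D2:**
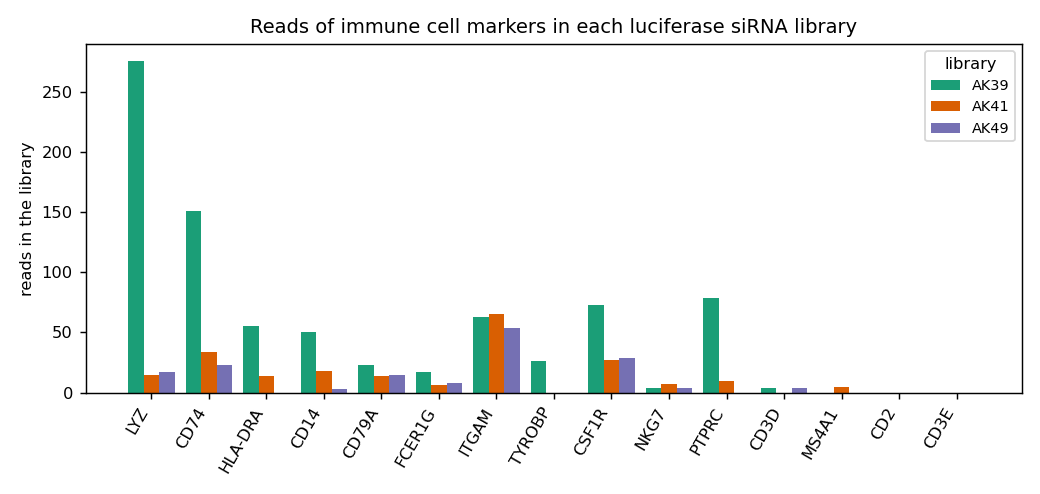
Reads of immune cell markers, by gene, in each luciferase siRNA library; each bar is 1 library. AK39 holds 276 reads of LYZ against 15 and 17 in the others, while CD2 and CD3E have no bar.

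Among 54 oncogenes 46 were expressed (85.2%, beside 56.4% of protein-coding genes), with a median of 12.2 RPKM. HMGA1 was by far the highest, at 872, 658 and 836 RPKM in AK39, AK41 and AK49. FOSL1, the FRA1 subunit of the AP-1 factor, had 181, 121 and 168 RPKM, and CCND1, cyclin D1, 86.2, 66.02 and 85.6. AK41 was the lowest library for all 3 genes, as for 64.6% of all expressed genes. NRAS had 73.7, 74.5 and 65.2 RPKM and stood above HRAS, with 18.1, 12.3 and 16.9, with no overlap between the libraries of these genes. MYC had 33.8, 29.3 and 34.0 RPKM and CCNE1, cyclin E1, 14.2, 11.9 and 13.6. The relatives of these genes were not all present. MYCN had no read, CCND2 had 8, 0 and 2 reads and the let-7 repressor LIN28B had 3, 4 and 5, while CCND3 had 8.45 ± 1.58 RPKM (SD, n = 3).

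Tumour suppressor transcripts were expressed in 33 of 36 cases (91.7%, beside 56.4% of protein-coding genes), with a median of 5.51 RPKM. CDKN2A, which encodes the p16 cell cycle inhibitor, was the highest of the list with 34.0, 39.8 and 35.8 RPKM. It lay well above RB1, whose product p16 keeps active, at 1.96, 1.77 and 1.69 RPKM. The chromatin remodelling subunits SMARCB1 and SMARCA4 had means of 28.0 and 22.1 RPKM and the deubiquitinase BAP1 20.5. CDK12, a transcription kinase and the gene targeted elsewhere in the study, had 8.33, 7.09 and 8.40 RPKM in these control libraries. The 3 members under the limit were PEG3 with no read, OPCML with 0, 4 and 0 reads and DIRAS3 with 15, 11 and 5.

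Cancer-testis antigens are germline genes that tumours can switch on. Here 3 of 28 were expressed (10.7%, beside 56.4% of protein-coding genes), and 13 had no read in any library. PRAME had 31.2, 27.9 and 33.0 RPKM. CTCFL, the germline relative of the insulator protein CTCF, had 14.0, 13.2 and 13.6, and the meiotic chromosome protein SYCP1 had 2.99, 3.85 and 2.83. The next member, SPANXB1, lay under the limit at 0.870 ± 0.127 RPKM (SD, n = 3). Among the members with no read were MAGEA12, SSX2, SSX4 and GAGE1.

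**Figure D3:**
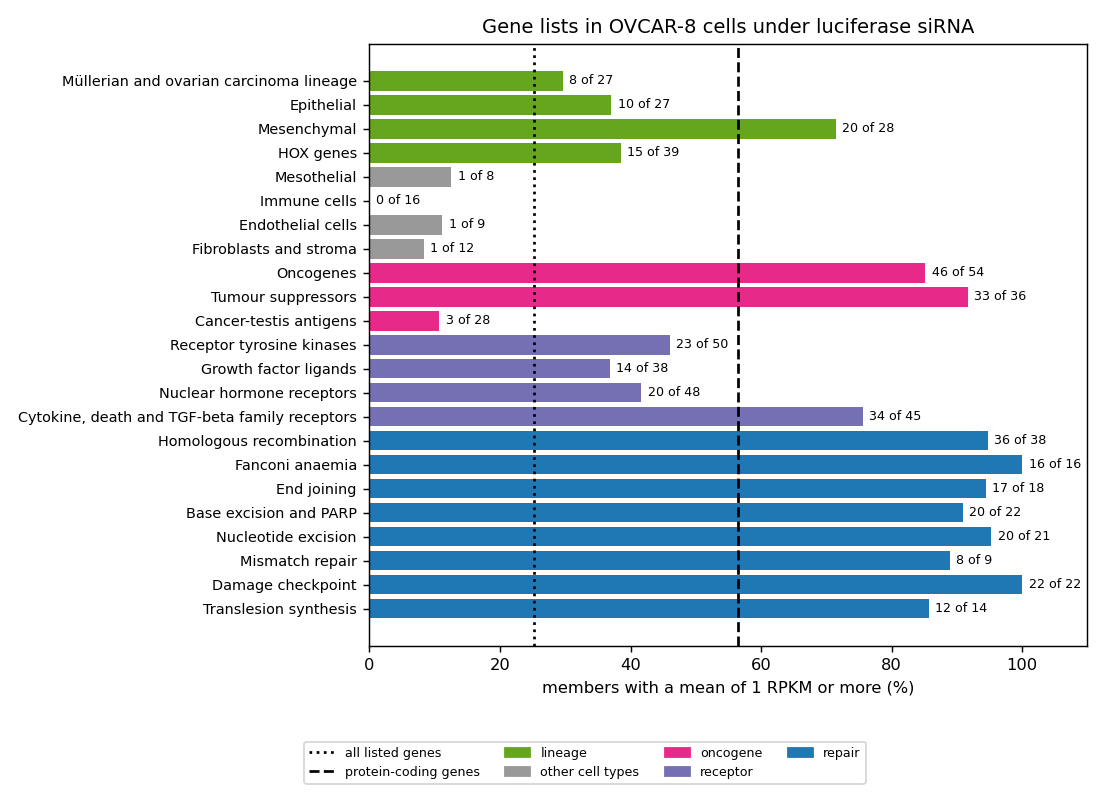
Share of the members of each of the 23 gene lists with a mean of at least 1 RPKM, with counts at the bar ends and colours for the class of list. The dotted line marks all listed genes (25.2%) and the dashed line protein-coding genes (56.4%); the repair lists reach 85.7% to 100%, while the lists of other cell types stay at or under 12.5%.

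Receptor tyrosine kinases were expressed in 23 of 50 cases (46%, beside 56.4% of protein-coding genes), and AXL led them. AXL, the receptor of the ligand GAS6, had 98.7, 69.1 and 97.6 RPKM (88.5 ± 16.7, SD, n = 3). EPHA2, an ephrin receptor, had 33.3, 25.3 and 37.7 RPKM, FGFR1 had 16.7, 14.0 and 18.5, and EGFR had 17.05, 11.9 and 16.9. AXL lay above the next 3 receptors in every library, and FGFR1 and EGFR overlapped. MET, the receptor of hepatocyte growth factor, had 6.27, 5.61 and 6.39 RPKM, ERBB2 5.63, 4.25 and 6.48, and IGF1R 3.41, 2.29 and 3.52. The platelet-derived growth factor receptor PDGFRB stayed under 1 RPKM. NTRK2, NTRK3 and MUSK, known from nerve and muscle, had no read, and FGFR2 had 1. AK49 was the highest library for 19 of the 23 expressed receptors, and for 34.0% of all expressed genes.

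Ligands of these receptors were expressed in 14 of 38 cases (36.8%, beside 56.4% of protein-coding genes). With a limit of 1 on the TPM scale, 23 passed. FGF5 had 23.5, 19.4 and 21.1 RPKM and FGF2 14.6, 14.8 and 12.9, both ligands of FGF receptors. VEGFB, of the vascular endothelial growth factor family, had 23.8, 16.5 and 22.1 RPKM, and the membrane-bound ephrin EFNB1 had 18.6, 18.4 and 20.7. HGF, the ligand of MET, had 2 reads, both in AK39, and IGF1, a ligand of IGF1R, had 6, 1 and 2.

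Nuclear hormone receptors were expressed in 20 of 48 cases (41.7%, beside 56.4% of protein-coding genes), led by NR2F2. NR2F2, also called COUP-TFII, had 38.5, 29.6 and 37.9 RPKM. RXRB, a partner of many other nuclear receptors, had 11.9, 12.6 and 12.7 RPKM, but SLC39A7 overlaps it with 2.85 times its reads. ESRRA, an estrogen-related receptor, had 11.6, 10.6 and 11.9, and TRMT112 overlaps it with 3.88 times its reads. The clock repressor NR1D2 had 10.95, 10.5 and 9.44 RPKM. NR3C1, the glucocorticoid receptor, had 5.80, 5.48 and 5.50 RPKM and so stood far above ESR1 in each library. RXRG had no read, NR1H4 had 2, both in AK41, and HNF4A had 2, 6 and 2.

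Cytokine, death and TGF-beta family receptors were expressed in 34 of 45 cases (75.6%, beside 56.4% of protein-coding genes). The highest was TNFRSF12A, the receptor of the cytokine TWEAK, with 129, 123 and 137 RPKM (130 ± 6.58, SD, n = 3). TNFRSF1A, the widely expressed receptor of tumour necrosis factor, had 31.6, 24.5 and 33.0 RPKM, against 67, 4 and 9 reads of TNFRSF1B, which is known mainly from leukocytes. IL6ST, the gp130 signalling chain, had 20.8, 26.1 and 20.02 RPKM and the TRAIL receptor TNFRSF10B 14.7, 12.2 and 16.4. The reads of TNFRSF1B lay mostly in AK39, as did those of LYZ and PTPRC.

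DNA repair genes had the highest expressed share of the classes described, with 151 of 160 list entries at 1 RPKM or more and a median of 6.57 RPKM, beside 56.4% and 1.79 RPKM for all protein-coding genes. In homologous recombination 36 of 38 members were expressed. RPA2, a subunit of the protein that coats single-stranded DNA, had 62.1, 66.7 and 58.8 RPKM and RPA1, another subunit, 30.7, 27.9 and 30.3. The nuclease MRE11A had 16.1, 18.96 and 15.2 RPKM and its partner NBN 16.9, 17.2 and 15.999. BRCA2, which acts in strand exchange, had 4.29, 4.29 and 3.46 RPKM, and BRCA1 had 2.47, 2.51 and 2.36. BRCA1 thus lay below BRCA2 in every library, and its SD was 0.078 RPKM on a mean of 2.45. BARD1, the obligate partner of BRCA1, had 2.29 ± 0.188 RPKM (SD, n = 3). The lowest member was the nuclease SLX1A, which has a near-identical copy, at 0.205 RPKM.

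All 16 Fanconi anaemia genes, which act in the repair of interstrand crosslinks, were expressed. The ubiquitin-conjugating enzyme UBE2T had 42.2, 50.5 and 41.7 RPKM and its substrate FANCI 16.6, 18.2 and 17.4. The others lay between 2.20 RPKM for FANCC and 15.8 RPKM for STRA13. In end joining 17 of 18 members were expressed. XRCC6 and XRCC5, which form the Ku ring on broken ends, had 132, 143 and 128 and 64.6, 77.8 and 63.3 RPKM. PRKDC, the kinase recruited by Ku, had 56.5, 44.1 and 59.7. AK41 was highest for both Ku genes and lowest for the kinase.

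In base excision repair and the PARP family 20 of 22 members were expressed. APEX1, an endonuclease that cuts at abasic sites, had 78.3, 77.97 and 74.9 RPKM, FEN1, the flap endonuclease, 48.3, 48.0 and 49.98, and the uracil glycosylase UNG 47.4, 40.1 and 45.1. PARP1, the target of PARP inhibitors, had 45.3, 39.9 and 45.8 RPKM. MGMT, which removes alkyl groups from guanine, had 2.66, 2.52 and 2.79 RPKM. The glycosylase NEIL1 stayed at 0.313 ± 0.0623 RPKM (SD, n = 3), and NEIL3 had no read, which allows up to 0.00232 RPKM.

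Nucleotide excision repair had 20 of 21 members expressed, with RAD23B, a damage recognition cofactor, at 81.6, 71.9 and 74.7 RPKM. Mismatch repair had 8 of 9. The member under the limit was MSH4, a meiotic protein, at 0.0650 ± 0.00391 RPKM (SD, n = 3). All 22 damage checkpoint genes were expressed. The histone gene H2AFX had 48.4, 40.4 and 53.8 RPKM, whereas the apical kinases were lower, ATM at 5.96, 6.23 and 5.35 and ATR at 2.69, 2.98 and 2.52. In translesion synthesis 12 of 14 were expressed, from PCNA, the sliding clamp, at 147, 160.1 and 138 RPKM down to the polymerases POLN and POLI, at 0.621 and 0.552 RPKM.

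The 3 libraries ranked the expressed genes alike, with a Spearman correlation of 0.994 between AK39 and AK49, 0.984 between AK39 and AK41 and 0.981 between AK41 and AK49, over 14555 genes that share the same libraries. The median coefficient of variation, the SD divided by the mean over the 3 libraries, was 10.9% among expressed genes. Counting of reads alone would give a median of 1.80%, so the spread of most genes was several times larger than counting error. It was 11.5% between 1 and 10 RPKM, 9.61% between 10 and 100, 9.67% between 100 and 1000 and 20.6% among the 16 genes of 1000 RPKM or more. Only 302 expressed genes, or 2.07%, exceeded 30%. AK41 stood apart: it held the lowest value of 64.6% of expressed genes. RPKM divides by the whole library. Reads summed over the listed rows came to 75.8% of the library size in AK41. In AK39 and AK49 the sums came to 82.7% and 81.0%. Overlapping rows can count a read more than once, so these are not shares of distinct reads. The part of this difference in the lower values of AK41 was not tested. Without AK41 the median coefficient of variation was 4.18%.

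**Figure D4:**
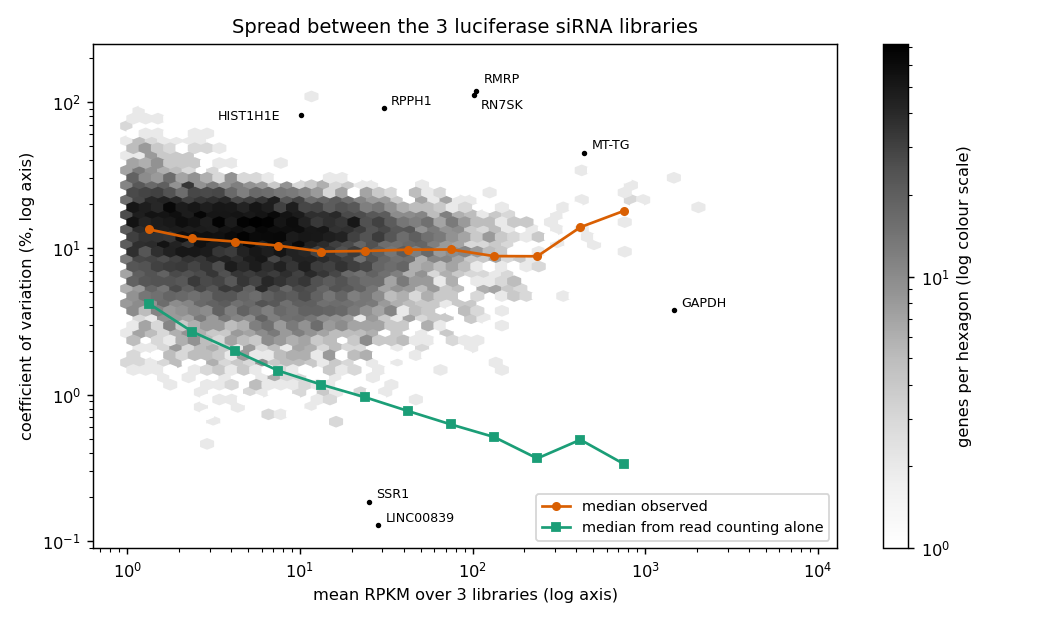
Coefficient of variation over the 3 luciferase siRNA libraries against mean RPKM, both on log axes, for the 14555 expressed genes; grey hexagons count genes, circles give the median in bins with at least 20 genes and squares the median that read counting alone would give. The observed median stays near 10% over most of the range and is higher at the top, while the counting line falls with level, and RMRP, RN7SK, RPPH1 and HIST1H1E lie far above.

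Among genes with a mean of at least 10 RPKM, those with the largest spread were mostly RNA species that lack a poly(A) tail or are made by RNA polymerase III. RMRP, the RNA of the RNase MRP particle, had 30.1, 250.03 and 35.3 RPKM in AK39, AK41 and AK49. RN7SK, which holds the elongation factor P-TEFb inactive, had 38.1, 234 and 33.8, and RPPH1, the RNA of RNase P, had 13.1, 62.8 and 16.3. HIST1H1E, a linker histone, had 5.33, 19.7 and 5.43 RPKM. AK41 was highest for each, and the 2 other libraries were close to each other. RN7SKP80, RN7SKP203 and RN7SKP71, pseudogenes of RN7SK, were also highest in AK41, as were MIR3687 and the signal recognition particle RNA RN7SL3. Of 30 expressed replication-dependent histone genes, 28 were highest in AK41, which was highest for 23.8% of all expressed genes, and the family had 76.9, 139 and 83.1 reads per 1000000. PDIA3P2, a pseudogene of 158 bases, differed in another way, with 0.385 RPKM in AK39 against 22.3 and 18.5 in the others.

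Among genes with a mean of at least 10 RPKM, the largest ratios of AK39 to the mean of the other libraries were 1.64 to 1.84 and belonged to the mitochondrial transfer RNAs MT-TR, MT-TG, MT-TH and MT-TS2 and to MIR922. MT-TG, for example, had 627, 231 and 472 RPKM. In AK49 they belonged to MIR1306, PDIA3P2, MIR4751, CTD-2026K11.1 and SNORD36C. MIR922, MIR1306, MIR4751, CTD-2026K11.1 and SNORD36C overlap KIAA0226, DGCR8, ATF5, CSPG4 and RPL7A, in this order. The latter genes had 35.3, 32.9, 11.85, 10.6 and 650 times the reads of the rows they overlap. Reads in such overlaps cannot be assigned to either gene. MIR4751 had 24.8, 15.99 and 32.6 RPKM, while PDIA3P2 was higher in AK41 than in AK49 and near 0 in AK39. The steadiest genes of at least 10 RPKM were LINC00839, SSR1, BFAR, RNF185-AS1, IMMT, NAP1L4, EIF5B, DDX10, EPB41L3 and GINS1. LINC00839, a long noncoding RNA, had 28.5, 28.4 and 28.5 RPKM, and SSR1, a subunit of the translocon-associated complex, had 25.2, 25.1 and 25.2. Their coefficients of variation, 0.128% and 0.186%, lay below the 1.02% and 0.494% of counting alone.

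The deviation of a library from the mean of the 3 moved with the GC content of the transcript. Among 10866 expressed protein-coding genes, the 2717 genes with the highest GC content, at a median of 60.8%, had a median log2 ratio to the mean of -0.25 in AK41, 0.09 in AK39 and 0.13 in AK49. In the 2717 genes with the lowest, at 39.01%, the values were 0.05, 0.01 and -0.07. The median coefficient of variation rose over 4 bins of GC content from 7.41% through 7.95% and 11.6% to 14.6%. The lists followed the same pattern in part. Expressed receptor tyrosine kinases had a median GC content of 55.6% and a median coefficient of variation of 18.6%, and homologous recombination genes had 42.1% and 8.37%. Nuclear hormone receptors, at 58.7% GC, had 10.3%. The part of GC content in the differences between libraries was not tested.

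**Figure D5:**
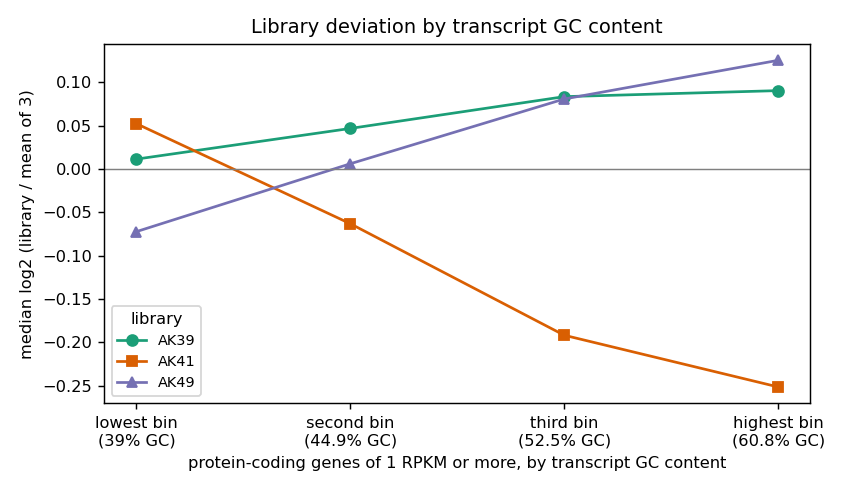
Median log2 ratio of each luciferase siRNA library to the mean of the 3, for 10866 expressed protein-coding genes in 4 bins of transcript GC content; each line is 1 library. AK41 falls from 0.05 to -0.25 as GC content rises, while AK49 rises from -0.07 to 0.13 and AK39 stays between 0.01 and 0.09.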

How the data were processed

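Polyadenylated RNA of OVCAR-8 cells was sequenced with an unstranded TruSeq mRNA kit, per the labels' protocols. The authors deposited 1 table of RPKM values with a listed length per gene. The submitters' processing notes name TopHat2, version 2, featureCounts, edgeR and hg19. The annotation version and the treatment of reads with several places are not given in the sources used here. RPKM times the length plus 1 base gave whole multiples of 1 step per library in 100% of values, within a tolerance of 0.001, from which reads and library sizes were recovered. Reads summed over all listed rows came to 108130031, 131472019 and 108296501 in AK39, AK41 and AK49. These sums equal 82.7%, 75.8% and 81.0% of the library sizes. Overlapping rows can hold the same reads, so a read can be counted more than once and the sums are not distinct reads.

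Means, SDs and coefficients of variation were computed over the 3 luciferase siRNA libraries with numpy 2.4.6 and pandas 2.3.3 in Python 3.11.15, and figures drawn with matplotlib 3.10.9. The spread calculation was tested on simulated data. No group was compared, so no significance test was run. The 23 gene lists held 608 entries, of which 605 matched a row. CD24, PECAM1 and BAGE had no single row, and MYCL1, C1orf124, VEGFD, HOXC4 and RBL1 were matched by synonym or gene ID. Biotypes came from GENCODE 29 for 52338 genes, and GC content from the longest GENCODE 29 transcript. Overlap was taken from the hg19 spans in the table. Genes named are the 30 highest, the 4 highest and up to 4 lowest of each list, a fixed set of cancer genes, paralog sets, and the genes with extreme spread; a few others are marked or follow a count. The members and lists were chosen with earlier results of these data known. Alternatives were other scalings, limits and filters, and leaving out each library. Some genes that the naming rule selects are not reported here.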

Additional observations from a re-analysis of the deposited data

How the results depend on the processing

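The number of expressed genes was 14200 to 14749 in single libraries and 14453 to 14676 when 1 library was left out. It was 17096 at a limit of 0.5 RPKM, 11909 at 2 RPKM, and 39108 with no limit, counting any value above 0. The share of summed RPKM in the 100 highest genes, 28.4%, fell to 25.4% without mitochondrially encoded genes and to 15.3% when reads took the place of RPKM, since reads give long genes more weight. It was 28.2% to 28.8% when 1 library was left out. The median coefficient of variation, 10.9%, was 16.3% with no limit among genes above 0 in all 3 libraries, and 4.18% to 12.3% when 1 library was left out, the lowest value being without AK41. It was 9.73% per read in listed genes and 9.23% with median-ratio size factors. No paired analysis was possible because only 1 group was analysed, so there were no groups to pair. Levels as such depend on the scale: TPM multiplies the 3 libraries by 3.49, 3.82 and 3.60, so that 19324 genes reach a value of 1, and 7 of 23 list counts moved by over 1.5 times (HOX genes to 27 members, growth factor ligands to 23, cancer-testis antigens to 5, mesothelial markers to 4, endothelial and fibroblast markers to 3 each and immune markers to 2). No list count moved by over 1.5 times when 1 library was left out or with scaling per read in listed genes. A list with nearly all members expressed, such as the repair lists, cannot rise that far. List medians moved by less than their SD over the 3 libraries in 19 or 20 of 23 cases without each library. That SD comes from the same 3 libraries, so the comparison is a weak check of stability. The mean levels of 34 named genes moved by less than 1 SD in all 34 cases. With 3 libraries, leaving out 1 cannot move a mean by 1 SD. The result for the 34 genes was therefore fixed in advance and shows nothing about their stability. Lists of low genes rest on few reads, and their levels are limited by counting error.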

Other observations

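Genes with reads in 1 of the 3 luciferase siRNA libraries only were examined after the immune markers had been seen, with genes of the Y chromosome left out. Those with at least 10 reads numbered 32 in AK39, 11 in AK41 and 0 in AK49. In AK39 the first of them were mostly genes known from neutrophils and monocytes. S100A9, a calcium-binding protein, had 138 reads, FCN1, a ficolin, 127, the kinase FGR 55, S100A8 49, the receptors CSF3R and CD300E 41 each, MNDA 30 and TYROBP 26, and the muscle gene CASQ2 27, all with no read in AK41 or AK49. In AK41 the small nuclear RNA pseudogene RNU6-1150P had 65 reads and the immunoglobulin genes IGHM and IGKC 34 and 15, with none in the other libraries. The level of S100A9 in AK39 was 1.83 RPKM. The source of these reads was not tested.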
